A study of Mus musculus with 36 samples.

Results

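Genes of brain lipid transport were followed across all populations of the series: the apolipoprotein genes Apoe, Clu and Apod, the lipid exporter genes Abca1 and Abcg1, and Pltp and Lcat, whose secreted products remodel lipoprotein particles. They were taken by gene symbol, and each of the 7 symbols named 1 of the 19909 rows of the deposited expression table. The table covers 36 libraries of poly(A) RNA, all from 8-week-old C57BL/6 mice. The 28 fresh libraries represent 8 populations sorted from homogenised subependymal zone (SEZ), the neurogenic tissue along the lateral ventricles. The labels call them qNSC, pNSC, aNSC and NPC1 (4 libraries each) and NPC2, NB1, NB2 and Other (3 each). The other 8 came from neurosphere cells grown in suspension with EGF and FGF, loaded with 2 ug/ml of the dye DFFDA, grown for 4 days and sorted as DFFDA_H and DFFDA_L (4 each). The design text says that these 2 populations differ in proliferative kinetics. A dye of this kind is diluted at each division, so cells that keep it have as a rule divided less. The labels give no sorting gate and do not say whether animals were pooled or whether each replicate was a separate animal or culture, so each p-value reflects only how far these samples spread, which may be technical.

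In the brain, lipoprotein particles are made locally, mostly by astrocytes and under some conditions by microglia, because plasma lipoproteins do not cross the blood-brain barrier. The ABC transporter ABCA1 loads cholesterol and phospholipid onto lipid-poor apolipoprotein E or clusterin, and ABCG1 adds lipid to the nascent particle. PLTP then moves phospholipid between particles, LCAT esterifies their cholesterol, and receptors at the cell surface take them up. Oxysterol-sensing LXR nuclear receptors, with RXR as partner, activate transcription of Apoe, Abca1, Abcg1 and Pltp in several cell types. The adult SEZ stem cell is an astrocyte-like cell that passes from quiescence to activation, then to transit progenitors and to neuroblasts.

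Values are the deposited log2 values, which behave like log2 CPM (reads scaled to a fixed library total) after quantile normalization: each library has the same top value, 13.26, and nearly the same median, so a value carries a gene's rank in its library. A gene ranked first cannot show a further rise. The floor, the lowest value of a library, lay between -5.06 and -2.18 and held 362 to 3932 genes, so the size of a change of a low gene depends on it. Differences are log2 differences from limma, called at an adjusted p under 0.05 over all genes tested. Summed markers of astrocytes and quiescent stem cells (12 of 12 found) were highest in qNSC and pNSC, at log2 14.03 to 14.41, and those of neuroblasts (9 of 9) in NB2, at 13.23 to 13.31. Those of activated stem cells and progenitors (7 of 7) were 11.81 to 11.92 in aNSC, 11.61 to 11.80 in NPC1 and 11.74 to 11.88 in NPC2, above every library of the other populations. In bulk samples such as these, fewer cells of a type and less RNA per cell cannot be told apart.

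Among the freshly sorted cells, Apoe, Clu, Pltp and Lcat were abundant in qNSC and pNSC and lower in aNSC, by 2.73 to 7.59 against qNSC on the log2 scale, and Abca1 was lower by 1.14. None of the 7 genes passed between qNSC and pNSC (limma, 0 of 7, with 1 of 7 at an unadjusted p under 0.05; 22.3% of all genes passed and 8.06% were lower in pNSC). Between pNSC and aNSC 6 of 7 passed and all 6 were lower in aNSC, where 48.3% of all genes passed and 19.9% were lower. Between qNSC and aNSC 5 of 7 were lower, against 27.1% of all genes lower and 35.3% higher. The median difference over the 7 genes from qNSC to aNSC was -2.73, and that over all genes tested was 0.19. These 3 comparisons share libraries and are not independent. From aNSC to NPC1 3 of 7 passed, 2 lower and 1 higher (12.7% of all genes, 6.24% higher), and from NPC2 to NB1 1 of 7, lower (7.67%, 3.88% lower).

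**Figure D1:**
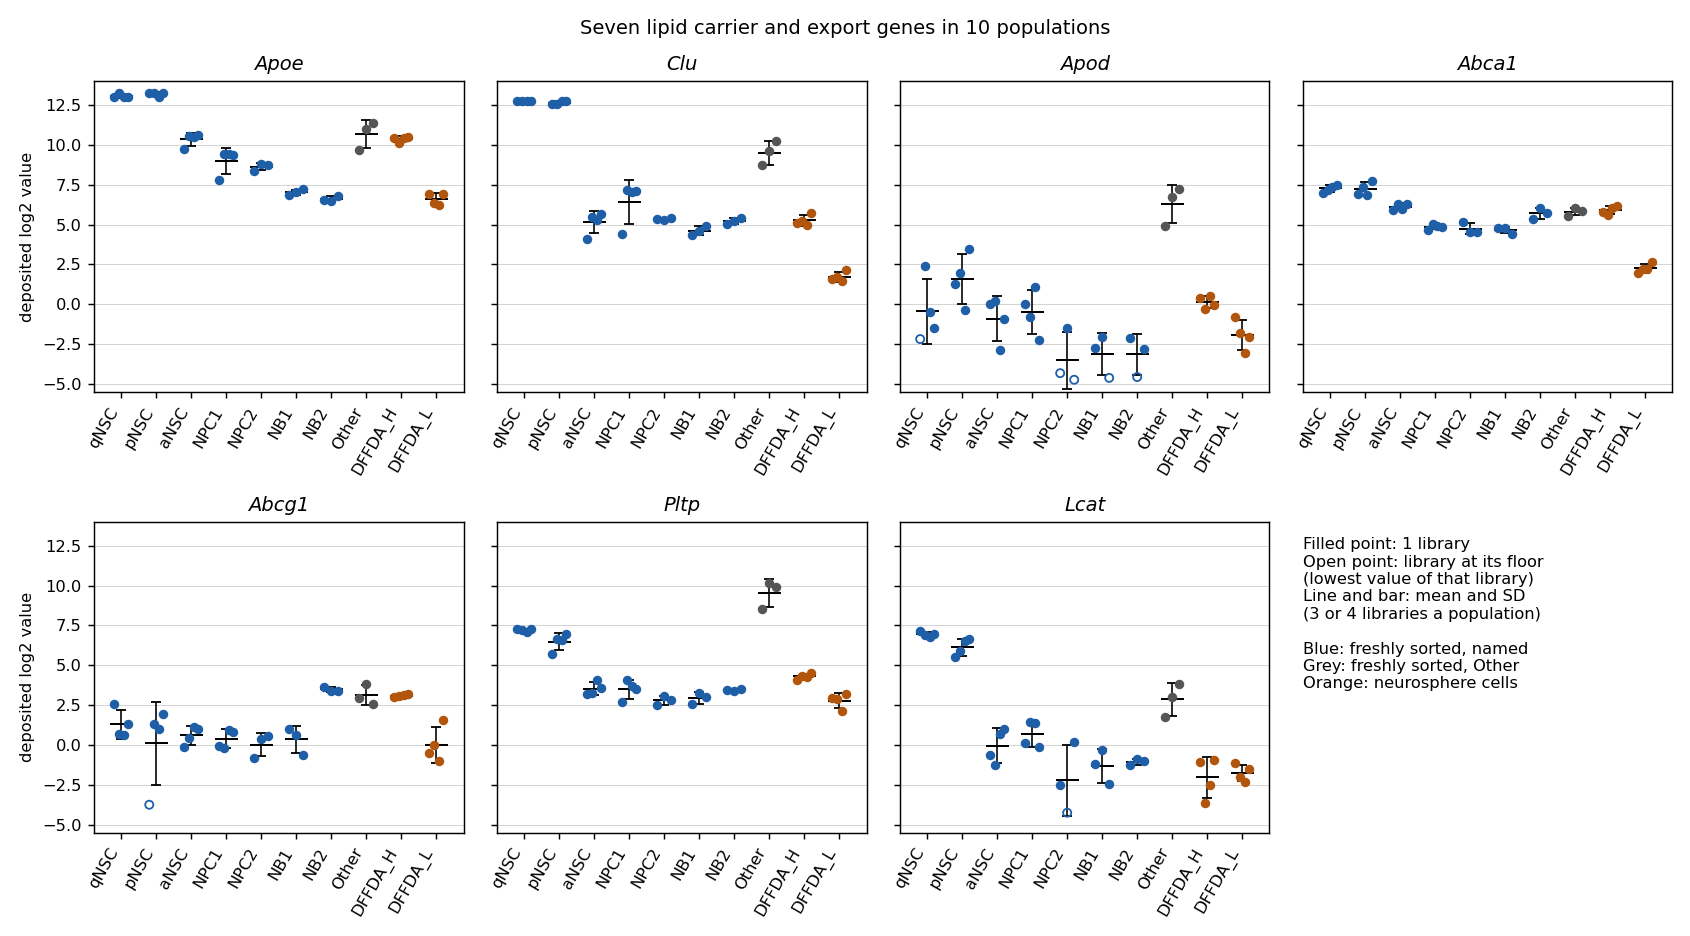
Deposited log2 value of each of the 7 genes (vertical axis) in each library of the 10 populations (horizontal axis), with the mean and SD of each population. Apoe and Clu lie at 12.55 or above in every qNSC and pNSC library, Apod and Pltp are highest in Other, and Abca1 is lowest in DFFDA_L.

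By level per kilobase of exon, Apoe led in every population, with 11.99 in qNSC and 5.51 in NB2 on the log2 per kb scale. In qNSC it was followed by Clu (10.94), Lcat (6.52), Pltp (5.86) and Abca1 (3.89). Abcg1 and Apod were lowest there, at -1.57 and -1.80. The order below Apoe differed among populations. In Other Pltp (8.17) came second, ahead of Clu (7.73) and Apod (4.93). Pltp (1.42) was ahead of Clu (-0.05) in DFFDA_L too. This scale divides by the union of annotated exons and takes no account of which transcript was made.

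Promoter sequences from RefSeq (GRCm38.p6, 250 bases before to 50 after a start site) were at hand for 5 of the 7 genes. Those of Apoe (at the start that matches the gene's 5′ end), Abca1 and Pltp are shown because these genes were higher both in qNSC than aNSC and in DFFDA_H than DFFDA_L. That of Lcat is shown because it was higher in qNSC than aNSC. It was not tested between DFFDA_H and DFFDA_L. Each reads 5′ to 3′, and capitals mark matches to a GC box (GGGCGG), an E-box (CACGTG) or a TATA box (TATAAA) on either strand.
Apoe, chr7:19699139-19699438, minus strand: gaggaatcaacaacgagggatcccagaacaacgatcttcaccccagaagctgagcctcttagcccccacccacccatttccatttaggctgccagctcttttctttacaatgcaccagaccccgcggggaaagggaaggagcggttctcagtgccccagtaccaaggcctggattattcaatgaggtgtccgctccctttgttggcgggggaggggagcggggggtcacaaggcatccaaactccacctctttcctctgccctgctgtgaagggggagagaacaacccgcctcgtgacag
Abca1, chr4:53159846-53160145, minus strand: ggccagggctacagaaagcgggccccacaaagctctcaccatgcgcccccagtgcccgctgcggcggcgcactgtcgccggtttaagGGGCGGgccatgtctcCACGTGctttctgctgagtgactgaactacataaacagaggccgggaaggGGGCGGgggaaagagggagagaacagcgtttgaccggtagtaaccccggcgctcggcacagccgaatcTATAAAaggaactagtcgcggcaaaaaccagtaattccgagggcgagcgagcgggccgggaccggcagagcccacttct
Pltp, chr2:164857659-164857958, minus strand: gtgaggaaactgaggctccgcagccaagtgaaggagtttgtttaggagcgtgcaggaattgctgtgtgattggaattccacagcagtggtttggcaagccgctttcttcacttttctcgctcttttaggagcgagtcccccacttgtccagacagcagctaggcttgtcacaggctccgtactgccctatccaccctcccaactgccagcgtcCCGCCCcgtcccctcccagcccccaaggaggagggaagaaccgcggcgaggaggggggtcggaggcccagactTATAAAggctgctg
Lcat, chr8:105943353-105943652, minus strand: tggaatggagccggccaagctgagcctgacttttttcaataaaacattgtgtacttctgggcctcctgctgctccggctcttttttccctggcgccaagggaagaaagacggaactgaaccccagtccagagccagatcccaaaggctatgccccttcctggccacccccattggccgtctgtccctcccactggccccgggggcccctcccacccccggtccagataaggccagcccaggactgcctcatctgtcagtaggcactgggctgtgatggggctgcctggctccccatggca
The Abca1 window held 1 E-box, its first base 147 bases before the start site, 1 TATA box 29 bases before it and 2 GC boxes, at 163 and 97 bases before it. Of 32851 promoter windows of this length, 7.15% hold the E-box, 13.6% the TATA box and 35.7% the GC box. The Pltp window held 1 GC box on the opposite strand, 37 bases before the start, and 1 TATA box, which lay 36 bases after the annotated start. The Apoe and Lcat windows shown held none of these motifs. None of the 7 windows of the 5 genes held an exact match to the consensus direct repeat spaced by 4 bases (0.0152% of windows). LXR and RXR bind repeats of this form. None held the NFI palindrome (0.0365%) or the STAT motif TTCNNNGAA (8.30%). Only exact letters were searched, on both strands. Imperfect repeats were not searched, so the windows may still hold LXR and RXR sites.

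Apoe (ENSMUSG00000002985, chr7:19696109-19699188, minus strand, in 5 exon blocks) encodes the main apolipoprotein of brain particles. Its values were 13.02, 13.26, 13.02 and 13.02 in qNSC replicates 1 to 4 and 13.26, 13.26, 13.02 and 13.26 in pNSC, where it had rank 1 or 2 of all genes in every library. A level above the top of the scale cannot appear, so the comparison of qNSC with pNSC carries no information on Apoe. In aNSC it was 9.75, 10.55, 10.49 and 10.64, below every qNSC and pNSC library, with a difference from pNSC of -2.84 (SE 0.297, limma adjusted p 1.72e-08), or 7.18-fold lower. Since Apoe stood at the top of the scale in qNSC and pNSC, this fold is a size on the quantile-normalized scale.

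In the progenitors and neuroblasts Apoe was 7.79, 9.45, 9.42 and 9.38 in NPC1, 8.36, 8.79 and 8.72 in NPC2, 6.88, 7.02 and 7.2 in NB1 and 6.52, 6.49 and 6.80 in NB2. It fell from aNSC to NPC1 by 1.35 (SE 0.297, limma adjusted p 0.00313) and from NPC2 to NB1 by 1.59 (SE 0.343, limma adjusted p 0.00365), with no overlap in either step. The differences from NPC1 to NPC2 (-0.39) and from NB1 to NB2 (-0.43) did not pass (limma adjusted p 0.79 and 0.395), although the NB1 and NB2 libraries do not overlap and the latter passed with only these groups fitted (0.0338). NPC1 replicate 1, at 7.79, lay apart from the other three. Its summed astrocyte and stem cell markers were also the lowest of the group, at 8.61, 9.89, 9.83 and 9.90 in replicates 1 to 4, and in aNSC replicate 1, the lowest for Apoe, they were lowest too, at 10.91, 11.80, 11.63 and 11.84. The part of these markers in the Apoe values was not tested. In NB2 Apoe ranked 2038 to 2654 of the 19909 genes.

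In culture Apoe separated the 2 dye populations, at 10.45, 10.11, 10.43 and 10.49 in DFFDA_H and 6.93, 6.35, 6.25 and 6.91 in DFFDA_L. The difference was 3.76 (SE 0.153, limma adjusted p 6.54e-08), 13.6-fold higher in DFFDA_H. DFFDA_H overlapped aNSC and Other in its values, and DFFDA_L overlapped NB1 and NB2. In order of their means the populations ran pNSC, qNSC, Other, DFFDA_H, aNSC, NPC1, NPC2, NB1, DFFDA_L, NB2. The gaps between qNSC and Other, aNSC and NPC1, and NPC2 and NB1 were free of overlap, and the other neighbours overlapped.

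Clu (ENSMUSG00000022037, chr14:65968483-65981547, plus strand) encodes clusterin or apolipoprotein J, a secreted chaperone that also rides on lipoproteins. It had rank 3 in all 4 qNSC libraries, with 12.72 in each, so that its SD there is 0, and rank 3 or 4 in pNSC (12.55, 12.55, 12.72 and 12.72). In aNSC it was 4.13, 5.45, 5.32 and 5.64, at ranks 4762 to 8712. From pNSC to aNSC it fell by 7.5 (SE 0.409, limma adjusted p 1.93e-13), the largest change among the 7 genes at this step.

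Clu was higher in NPC1 than in aNSC. It was 4.39, 7.15, 7.01 and 7.10 in NPC1, 5.35, 5.30 and 5.44 in NPC2, 4.32, 4.61 and 4.88 in NB1 and 5.05, 5.21 and 5.39 in NB2. In NPC1, 3 libraries lay near 7 and replicate 1 lay with aNSC. The NPC1 difference from aNSC, 1.28 (SE 0.409, limma adjusted p 0.0387), was positive, but the call ended in 6 of the 8 fits that left out 1 library (adjusted p up to 0.15) and with only the 2 groups fitted (0.162). Without NPC1 replicate 1 it was 1.95 (3.64e-05). Without that library Clu also passed between NPC1 and NPC2, with a difference of -1.73 (adjusted p 0.00267), where the full fit gave -1.05 (SE 0.442, limma adjusted p 0.378). The later steps did not pass, -0.76 to NB1 (limma adjusted p 0.401) and 0.61 to NB2 (0.376), except with only the groups compared (0.0124 and 0.0221). The DFFDA_H values, 5.09, 5.25, 4.97 and 5.75, overlapped those of NPC2, aNSC and NB2, with replicate 4 above all of these. The DFFDA_L values, 1.58, 1.73, 1.44 and 2.17, lay below every other library. DFFDA_H exceeded DFFDA_L by 3.54 (SE 0.208, limma adjusted p 2.59e-07).

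Apod (ENSMUSG00000022548, chr16:31296192-31314808, minus strand) encodes a lipocalin that carries small hydrophobic ligands. It was low in every named population and high in Other, at 4.93, 6.72 and 7.25 in replicates 1 to 3. The highest value elsewhere was 3.46, in pNSC replicate 4, below every Other library. Its difference from the mean of the 7 named populations was 7.72 (SE 0.884, limma adjusted p 1.04e-07). In 5 libraries, qNSC replicate 1, NPC2 replicates 1 and 3, NB1 replicate 3 and NB2 replicate 2, Apod stood at the floor, so the size of this difference depends on it. Within the stem cell populations it ranged widely, from -2.18 to 2.41 in qNSC and from -0.33 to 3.46 in pNSC. The lower value in aNSC than pNSC, -2.48 (SE 1.02, limma adjusted p 0.047), overlapped between groups and lost its call without pNSC replicate 1, 2 or 4, without aNSC replicate 3 or 4 (adjusted p up to 0.169) and with no filter on low values (0.0512). The pNSC difference from qNSC, 2.03 (SE 1.02, limma adjusted p 0.156), passed without qNSC replicate 2 (0.0366). Apod did not pass the filter for the neurosphere fit, where its values were 0.39, -0.28, 0.55 and -0.01 in DFFDA_H and -0.78, -1.80, -3.04 and -2.02 in DFFDA_L.

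**Figure D2:**
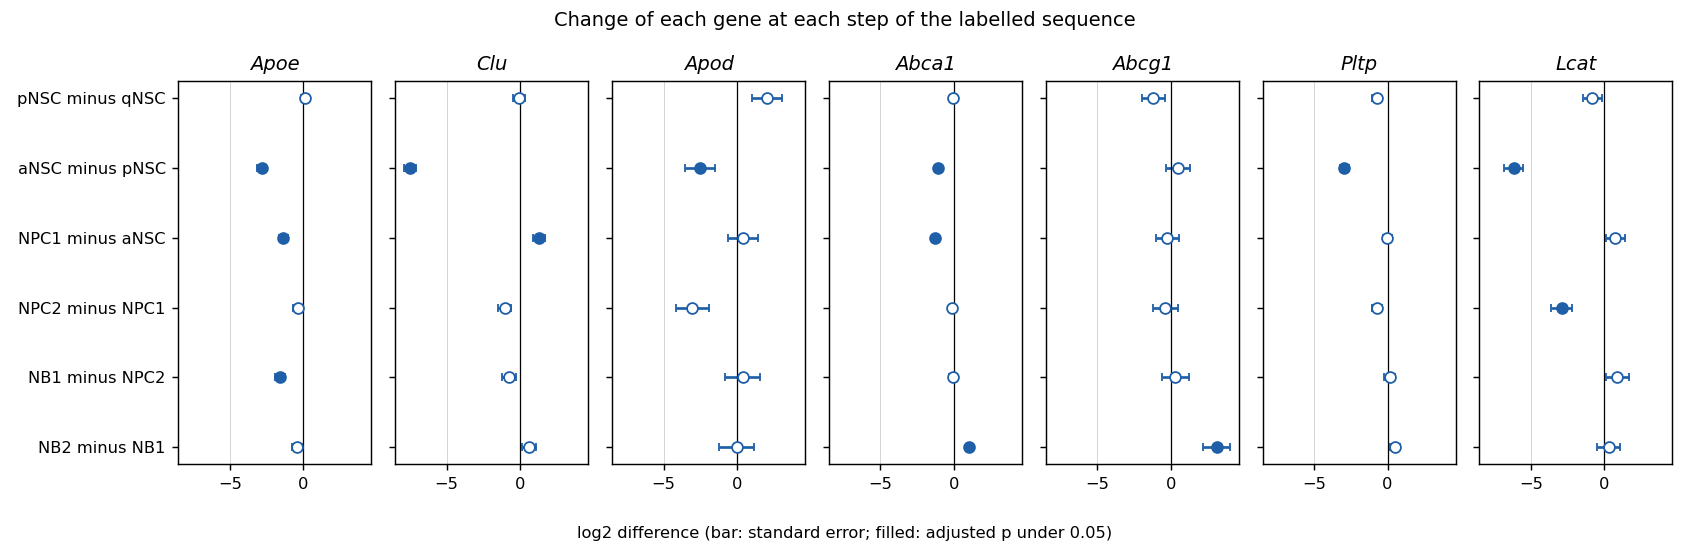
Log2 difference of each gene (horizontal axis, bar 1 standard error) at the 6 successive steps from qNSC to NB2 (vertical axis), with filled points for an adjusted p under 0.05. At aNSC minus pNSC 6 of the 7 genes are called and lower, and at NB2 minus NB1 Abca1 and Abcg1 are called and higher.

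Abca1, the first of the 2 exporter genes (ENSMUSG00000015243, chr4:53030787-53159895, minus strand, in 50 exon blocks), was measured well above the floor in all freshly sorted cells. It was 7.0, 7.17, 7.37 and 7.51 in qNSC and 6.91, 7.39, 6.85 and 7.76 in pNSC. Its aNSC values, 5.93, 6.29, 5.96 and 6.30, lay below all of these, 2.15-fold lower than pNSC (-1.11, SE 0.195, limma adjusted p 4.41e-05). It fell again by 1.25 from aNSC to NPC1 (SE 0.195, limma adjusted p 9.59e-05), to 4.66, 5.07, 4.94 and 4.82, and lay between 4.43 and 5.17 in NPC2 and NB1.

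In NB2 Abca1 rose, to 5.33, 6.05 and 5.75, above every NB1 library and 2.06-fold higher than NB1 (1.04, SE 0.225, limma adjusted p 0.00119). Abcg1 (ENSMUSG00000024030, chr17:31057675-31117988, plus strand) rose with it. Abcg1 was 1.03, 0.62 and -0.60 in NB1 and 3.65, 3.41 and 3.40 in NB2, 8.79-fold higher (3.14, SE 0.905, limma adjusted p 0.0124), and this call ended without NB1 replicate 3 (adjusted p 0.0669). These were the 2 of 7 genes called at this step, where 24.6% of all genes passed and 10.4% were higher.

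Abcg1 was low in the stem cells, at 2.60, 0.69, 0.62 and 1.29 in qNSC, -3.74, 1.29, 0.98 and 1.93 in pNSC, with replicate 1 at the floor, and -0.11, 0.41, 1.14 and 1.02 in aNSC. It did not pass between any of these populations (limma adjusted p 0.284, 0.623 and 0.46), and the sign of the pNSC difference turned without pNSC replicate 1. By mean it was highest in NB2, then Other (2.96, 3.80 and 2.57) and DFFDA_H, which overlapped one after the other. DFFDA_H did not overlap qNSC, the next by mean, but Other did, since qNSC replicate 1 exceeded Other replicate 3.

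Both exporters were higher in DFFDA_H than in DFFDA_L. Abca1 was 5.78, 5.61, 6.07 and 6.18 in DFFDA_H and 1.95, 2.22, 2.19 and 2.67 in DFFDA_L, 12.6-fold apart (3.65, SE 0.179, limma adjusted p 8.56e-08). The DFFDA_L values were the lowest of the 36 libraries. Abcg1 was 3.00, 3.06, 3.16 and 3.20 against -0.50, -0.03, -1.0 and 1.57, 8.52-fold apart (3.09, SE 0.425, limma adjusted p 1.08e-04). Of the 5 genes of the 7 that passed the filter in neurosphere cells, 5 were higher in DFFDA_H, where 43.8% of all genes passed and 21.6% were higher. Abcg1 passed the filter only through DFFDA_H, the group where it was high, so its place in this count carries no weight. Marker sums also differed between the 2 populations. The astrocyte and quiescent stem cell sum was 11.44 to 11.61 in DFFDA_H and 10.99 to 11.22 in DFFDA_L, with 7 of 10 tested markers called, all higher. The ependymal sum was 5.50 to 5.72 and 3.80 to 4.19, with 2 of 3 tested markers called, each higher. In each population 7 of 10 ependymal means were below 0. The endothelial sum was 5.77 to 6.23 and 5.08 to 5.51, with 1 of 4 tested markers called, higher. The mural sum went the other way, 1.83 to 2.41 and 2.61 to 3.43, with 1 of 2 called, lower. That of activated stem cells and progenitors was 8.68 to 8.90 and 9.40 to 9.71, with 5 of 7 called, all lower. The oligodendrocyte precursor sums overlapped, 9.37 to 10.19 and 9.29 to 10.31, with 2 of 3 tested markers called, each lower. Their part in the result was not tested.

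Pltp (ENSMUSG00000017754, chr2:164839518-164857711, minus strand) encodes the phospholipid transfer protein. It was 7.28, 7.18, 7.12 and 7.29 in qNSC and 5.70, 6.63, 6.60 and 6.95 in pNSC. The 2 groups did not overlap but the difference of -0.74 missed the threshold (limma adjusted p 0.0847). It passed without pNSC replicate 4 (0.0468). In aNSC Pltp was 3.19, 3.25, 4.06 and 3.60, 12.9-fold lower than qNSC (-3.69, SE 0.309, limma adjusted p 1.04e-10), and it lay between 2.50 and 4.10 in NPC1, NPC2, NB1 and NB2, with no called step. In DFFDA_H it was 4.10, 4.3, 4.28 and 4.54 and in DFFDA_L 2.96, 2.86, 2.12 and 3.18 (1.52, SE 0.214, limma adjusted p 1.02e-04). In Other it was 8.53, 10.16 and 9.88, above every other library.

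Pltp shares 495 exon bases with Ctsa, a lysosomal protease gene on the opposite strand, and the library kit does not mark strand, so reads there cannot be told apart. Ctsa averaged 8.54 in qNSC, 6.54 in aNSC and 8.27 in Other. Pltp lay below Ctsa by mean in every population but Other, where it averaged 9.52 ± 0.876 (SD, n = 3).

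Lcat (ENSMUSG00000035237, chr8:105939551-105943382, minus strand) encodes lecithin-cholesterol acyltransferase. It was 7.14, 6.92, 6.80 and 6.94 in qNSC and 5.52, 5.87, 6.53 and 6.64 in pNSC, which did not overlap, with a difference of -0.81 (SE 0.671, limma adjusted p 0.402). In aNSC it was -0.64, -1.25, 0.71 and 1.02. The fall from qNSC to aNSC was 6.99 (SE 0.671, limma adjusted p 1.25e-09). From NPC1 (0.12, 1.45, 1.39 and -0.12) to NPC2 (-2.53, -4.24 and 0.16, replicate 2 at the floor) it differed by -2.91 (SE 0.725, limma adjusted p 0.0394), 1 of 7 genes called where 1.34% of all genes passed and 1.14% were lower (0.202% higher). The call ended with values below 0 set to 0 (0.59), with only the 2 groups fitted (0.125) and without any of 5 single libraries (up to 0.364). In culture Lcat was low, -1.08, -3.62, -2.50 and -0.94 in DFFDA_H and -1.15, -2.02, -2.3 and -1.52 in DFFDA_L, and did not pass the filter for that fit.

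The whole of Lcat lies inside Gm16156, an antisense gene on the other strand, with no exon bases shared. Gm16156 averaged 7.75 in qNSC, 4.04 in aNSC, 6.13 in DFFDA_H and 5.46 in DFFDA_L. In DFFDA_H, Gm16156 was at 6.02 to 6.27 and Lcat at most -0.94. Without strand, reads of unspliced Gm16156 RNA inside Lcat cannot be told apart from Lcat reads. The part of Gm16156 in the Lcat values was not tested.

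Other expressed the apolipoprotein genes and Pltp at a high level together with vascular, microglial and neuroblast markers. Against the mean of the 7 named populations, 6 of 7 genes were higher in Other, where 54.3% of all genes passed and 25.9% were higher. Pltp was 38-fold higher (5.25, SE 0.267, limma adjusted p 3.61e-13) and Clu 4.21-fold higher (2.07, SE 0.354, limma adjusted p 2.67e-05). The Clu values in Other, 8.72, 9.60 and 10.21, were nevertheless below all qNSC and pNSC libraries and above all the rest. Apoe (9.69, 10.97 and 11.37), Abcg1 and Lcat (1.78, 3.01 and 3.84) were higher by 0.98, 2.21 and 1.57 (limma adjusted p 0.00242, 0.00789 and 0.0254), but overlapped the named populations. Their calls ended without Other replicate 3 for Apoe (0.0832), without replicate 2 for Abcg1 (0.0675) and without replicate 2 or 3 for Lcat (0.0889 and 0.214). Abca1, at 5.57, 6.01 and 5.87, did not pass (0.01, 0.95).

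In Other the summed endothelial markers (10 of 10 found, with 10 means at or above 0) were 10.25, 11.72 and 11.46 in replicates 1 to 3, against 3.27 to 4.78 in the 25 libraries of the named populations. Mural markers (6 of 8 found) were 7.16, 10.88 and 9.79 and 0.65 to 7.35 respectively. Microglial markers (12 of 12 found) were 9.52, 10.36 and 10.05 in Other and 7.64 to 10.10 in the named populations. Markers of fibroblasts and meninges (7 of 8 found) were 4.66, 7.12 and 6.50 in Other and 1.31 to 5.83 elsewhere in fresh tissue. Those of oligodendrocytes (10 of 10 found, 2 of them at the floor in all 3 Other libraries) were 7.85 to 7.88 in Other. In the named populations the oligodendrocyte sums were 7.59 to 9.49. Neuroblast markers were also high, at 13.17, 12.90 and 12.61, with 8 of 9 called higher, and red cell markers (4 of 4 found) were 5.25, 6.05 and 8.58, with 3 of 4 called higher. Apoe, Clu, Apod, Pltp and Lcat were lowest in Other replicate 1, the library with the lowest endothelial, mural, microglial and fibroblast sums. The part of these cell types in the result was not tested.

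**Figure D3:**
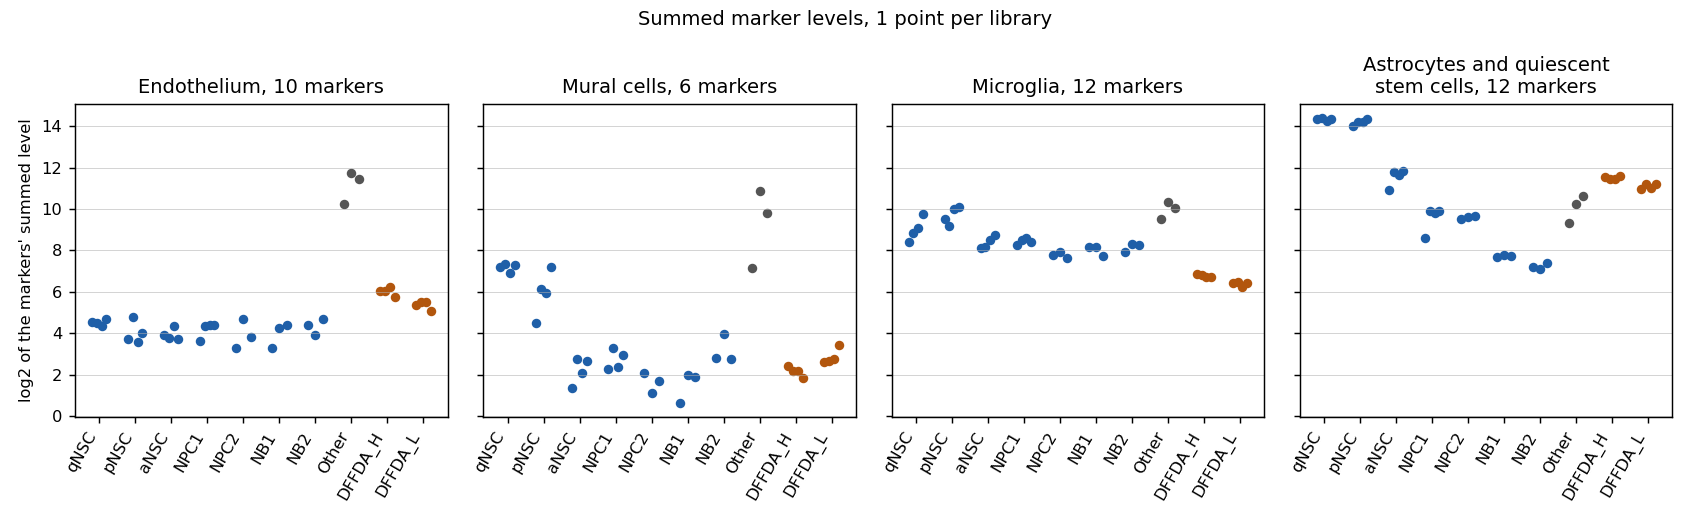
Log2 of the summed level of 4 marker lists (vertical axis) in each library of the 10 populations (horizontal axis). Endothelial sums reach 10.25 to 11.72 in Other and at most 6.23 elsewhere, and the astrocyte and quiescent stem cell sums are highest in qNSC and pNSC.

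Microglia also make apolipoprotein E, and their markers were present in the stem cell populations. The microglial sum was 8.4 to 9.74 in qNSC and 9.20 to 10.10 in pNSC, with 12 of 12 marker means at or above 0 in both, and 8.13 to 8.74 in aNSC, with 11 of 12. In DFFDA_H and DFFDA_L it was 6.72 to 6.86 and 6.25 to 6.48, with 3 and 4 of the 12 at the floor in all libraries. The ependymal sum (10 of 10 found) was 7.24 to 7.56 in qNSC, 5.74 to 6.87 in pNSC and 3.79 to 4.71 in aNSC. The mural sum was 6.91 to 7.35 in qNSC, 4.48 to 7.2 in pNSC and 1.35 to 2.75 in aNSC. Mural means at or above 0 numbered 4 of 6 in qNSC and 1 of 6 in pNSC and in aNSC. From qNSC to aNSC 3 of 6 mural markers were called lower and 1 higher (27.1% and 35.3% of all genes). From pNSC to aNSC 1 of 6 was called, lower (19.9% of all genes lower), and the median difference over the 6 was 0.34. The part of these cells in the qNSC and pNSC values was not tested.

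Culture and fresh tissue were compared directly in a fit of all 36 libraries, in which origin, medium, dye and sort cannot be told apart. Marker content differed too. Summed oligodendrocyte precursor markers (5 of 6 found) were 9.37 to 10.19 in DFFDA_H, 9.29 to 10.31 in DFFDA_L, 4.87 to 6.22 in qNSC and 5.75 to 6.58 in aNSC. Single markers went both ways, with 2 of 5 called higher and 1 lower in DFFDA_L than aNSC, and 1 higher and 2 lower in DFFDA_H than qNSC. Their part was not tested. In DFFDA_L 5 of 7 genes were lower than in aNSC (70.1% of all genes passed, 38.7% lower, 31.4% higher). Abca1 differed by -3.86 (SE 0.196, limma adjusted p 1.26e-17), Apoe by -3.75 and Clu by -3.41. The smaller differences of Pltp (-0.75) and Lcat (-1.70) lost their calls with libraries centred on trimmed differences (0.112 and 0.0511) and without DFFDA_L replicate 3, aNSC replicate 3 or aNSC replicate 4 (up to 0.133 and 0.101). That of Lcat also ended without DFFDA_L replicate 2 (0.0556) and with values below 0 set to 0 (0.257). In DFFDA_H 6 of 7 differed from qNSC (74.2% of all genes): Apoe by -2.71, Clu by -7.45, Abca1 by -1.35, Pltp by -2.91 and Lcat by -8.98, all lower in DFFDA_H. Abcg1 was higher in DFFDA_H, by 1.80 (SE 0.737, limma adjusted p 0.0282), a call that ended without DFFDA_H replicate 4 or qNSC replicate 2 or 3 (up to 0.0764).

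Whether the DFFDA_H minus DFFDA_L effect differed from the qNSC minus aNSC effect was tested as the difference of the 2 effects. It passed for 5 of 7 genes, positive for 2 and negative for 3 (42.3% of all genes, 24% positive and 18.3% negative). The exporter Abca1 changed more in culture, 3.65 against 1.14, a difference of 2.51 (SE 0.278, limma adjusted p 9.82e-09). Clu and Pltp changed more in fresh tissue. Clu had 3.54 against 7.59 (-4.05, SE 0.535, limma adjusted p 2.47e-07) and Pltp 1.52 against 3.69 (-2.16, SE 0.421, limma adjusted p 9.22e-05). Lcat, the remaining call, had -0.29 against 6.99, but all 8 of its neurosphere values were below 0 and it entered this fit through fresh populations, so that no effect in culture could be read and the comparison says nothing of it. For Apoe the effects were 3.76 and 2.73, and the difference of 1.04 (SE 0.393, limma adjusted p 0.0328) ended with libraries centred on trimmed differences (0.118) and without any of 8 single libraries (up to 0.0741). Apoe was also at the top of the scale in qNSC. The Abcg1 difference, 2.40 (SE 1.04, limma adjusted p 0.0626), missed the threshold. It passed with values below 0 set to 0 (0.004), with only the 4 groups fitted (0.012) and without DFFDA_L replicate 4 or qNSC replicate 1 (down to 0.0262). For Apod the difference was 1.61 (SE 1.32, limma adjusted p 0.346).

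Genes around this group were read from lists of the pathway. The list of other apolipoproteins had 5 of 13 genes in the table, of which 4 were tested in fresh tissue and all 4 were lower in aNSC than qNSC (62.3% of all genes passed, 27.1% lower). Means at or above 0 numbered 4 of 5 in qNSC, 2 in pNSC and 0 in aNSC. Such genes could pass the filter through qNSC, the group where they were high, so this count carries no weight. Apoc1, which lies beside Apoe and inhibits lipoprotein uptake, averaged 3.40 in qNSC and -0.85 in aNSC (-4.25, limma adjusted p 1.61e-06). Apoc3, an inhibitor of lipoprotein lipolysis, was at the floor in every library of aNSC, NPC1, NPC2, NB2, Other, DFFDA_H and DFFDA_L. In the neurosphere fit 2 of these genes were tested and 0 passed by limma at an adjusted p under 0.05, 0 at an unadjusted one.

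Of 15 other lipid ABC transporters tested, 12 were lower and 1 higher in aNSC than qNSC, where 27.1% of all genes were lower and 35.3% higher. The peroxisomal transporter Abcd2 fell by 1.69 (limma adjusted p 1.21e-10), Abca5 fell by 2.42 and Abcd4 fell by 3.38. Abcg4, the close relative of Abcg1, was 5.40 to 5.94 in qNSC and 3.03 to 3.55 in aNSC (-2.50, 1.11e-07). It was 4.17 by mean in NB2, where Abcg1 was highest. The member that was higher in aNSC was not a cholesterol exporter but the multidrug transporter Abcg2 (3.78, limma adjusted p 4.16e-06), with 1 qNSC library at the floor.

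Of 15 lipoprotein receptor genes tested, 8 were lower and 2 higher in aNSC than qNSC. The 10 called of 15 stand beside 62.3% of all genes, 27.1% lower and 35.3% higher. Lrp1, a large uptake receptor for apolipoprotein E, was 7.21 to 7.68 in qNSC and 3.46 to 4.41 in aNSC (-3.57, limma adjusted p 5.15e-13). The sorting receptor Sorl1 fell by 3.45 (3.87e-09), and the reelin adaptor Dab1 by 2.22 (2.94e-09). Lrp8, which binds apolipoprotein E and reelin, was higher in aNSC (1.51, 3.30e-08).

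In NB2, where both exporters rose, 6 of 15 receptor genes were higher than in NB1 and 3 lower (10.4% and 14.2% of all genes). Lrp1 was 4.22 to 4.75 in NB1 and 6.25 to 7.14 in NB2 (2.3, limma adjusted p 4.01e-07). Lrp8 rose by 1.67 (9.86e-07) and Sorl1 by 2.1 (3.88e-04). Of 21 genes of sterol control 4 were higher and 3 lower in NB2. Nfib rose by 0.78 (limma adjusted p 5.31e-04), and Srebf1 and Insig1 fell by 1.01 and 1.02 (0.0012 and 1.46e-04). The lipase gene Lipg was listed at the floor in all 3 NB2 libraries.

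**Figure D4:**
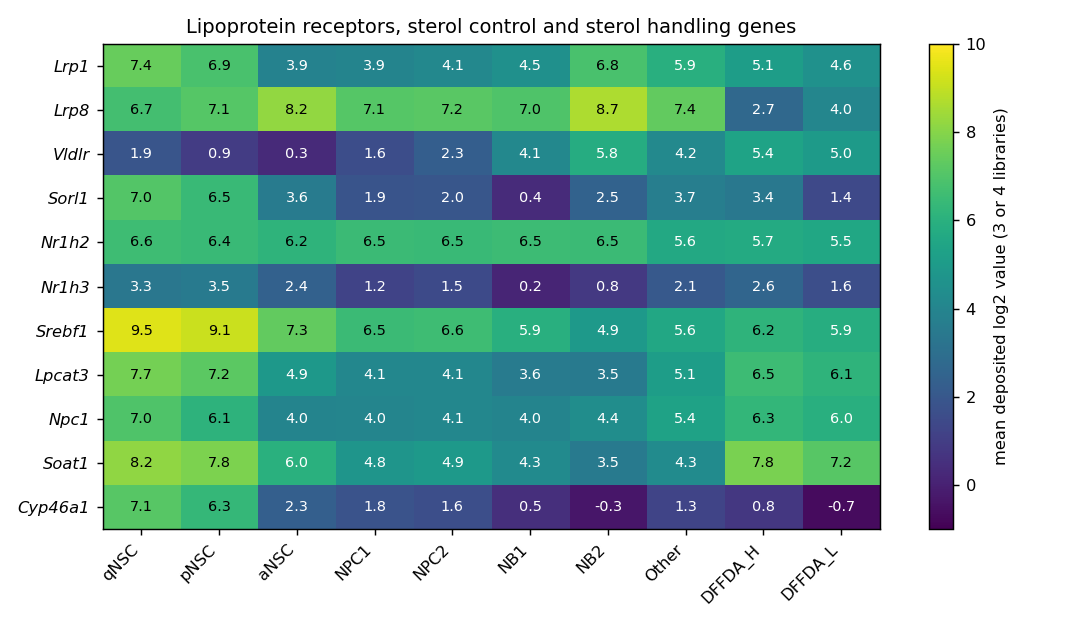
Mean deposited log2 value (colour and printed number) of 11 genes of lipoprotein uptake, sterol control and sterol handling (rows) in the 10 populations (columns). Lrp1 is high in qNSC, pNSC and NB2, while Srebf1 and Cyp46a1 are highest in qNSC. The 11 genes were picked for display after their values were seen.

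Of 21 tested genes of LXR, RXR and sterol control, 9 were lower and 4 higher in aNSC than qNSC, and the 13 called of 21 were close to the 62.3% of all genes called. Nr1h2, which encodes LXR beta, averaged 6.57 in qNSC and 6.17 in aNSC (-0.40, limma adjusted p 0.0417), and Nr1h3, which encodes LXR alpha, 3.35 and 2.42 (-0.92, 0.122). Lpcat3, a phospholipid-remodelling enzyme, and the lipogenic regulator Srebf1, both known LXR targets, fell by 2.85 and 2.1 (3.43e-11 and 4.10e-10). Nfix and Nfib, transcription factors of the nuclear factor I family, were higher in aNSC by 1.78 and 1.26 (2.04e-11 and 8.53e-09).

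Against the named populations, 0 of 4 other apolipoprotein genes passed in Other by limma, and 0 at an unadjusted p under 0.05. Among 15 receptor genes 5 were higher and 3 lower in Other, close to the 54.3% of all genes called. Lsr, a lipoprotein receptor that is also a junction protein of endothelium, was higher by 5.39 (limma adjusted p 5.42e-06), and Vldlr, a receptor for apolipoprotein E, by 1.73 (0.00173). Of the other lipid ABC transporters 1 of 15 was higher and 7 lower, of sterol control genes 3 of 21 higher and 8 lower, and of the lipolysis, esterification and egress genes 3 of 13 higher and 3 lower. Among the last the lipid droplet gene Plin2 was higher by 1.1 (6.72e-08). The endothelial sums given above stand beside these values, and their part was not tested.

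Between the neurosphere populations 3 of 20 tested genes of LXR, RXR and sterol control were higher in DFFDA_H and 5 lower, close to the 43.8% of all genes called. Nr1h3 was 2.24 to 2.84 in DFFDA_H and 1.21 to 1.93 in DFFDA_L (0.97, limma adjusted p 0.0029). Srebf2, the main regulator of cholesterol synthesis, was lower in DFFDA_H (-0.60, 0.00872). Among receptors 6 of 14 were higher and 4 lower in DFFDA_H (21.6% and 22.3% of all genes), with Sorl1 at 1.97 (9.24e-05) and Lrp8 at -1.33 (9.43e-05).

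Of 13 genes of lipolysis, sterol esterification and egress, 9 were lower and 2 higher in aNSC than qNSC (27.1% and 35.3% of all genes). Npc1, which exports cholesterol from lysosomes, fell by 2.97 (limma adjusted p 2.31e-13). Soat1, which esterifies cholesterol inside cells, fell by 2.21 (7.72e-10). Cyp46a1, which hydroxylates cholesterol to an LXR ligand, was 6.96 to 7.43 in qNSC and 1.39 to 3.37 in aNSC (-4.82, 1.34e-09). In DFFDA_H 7 of 12 were higher than in DFFDA_L and 2 lower (21.6% and 22.3% of all genes), with Nceh1, which releases cholesterol from its esters, at 0.93 (4.88e-06) and the sterol carrier Stard4 at -0.91 (4.30e-06).

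The likeness of patterns was described by Pearson's r between the 10 population means, over 10417 genes with a mean of at least 4.3 in some population. These points share libraries and normalization, and no test was made. Within the group, Clu and Lcat had the highest r (0.947), then Apod and Pltp (0.883) and Apoe and Clu (0.879), while Abcg1 had an r of 9.36e-04 with Apoe and -0.0447 with Lcat. The genes most like Apoe were Loxl1 (r = 0.97), Gpr37l1 (r = 0.969), Ganc (r = 0.956) and Sqor (r = 0.949). Gpr37l1 is a receptor of astrocytes. Those most like Clu were Chchd10 (r = 0.985), Cyp4f15 (r = 0.978), Gpr108 (r = 0.975) and Nat6 (r = 0.973), and those most like Lcat were Chil1 (r = 0.988), Etnppl (r = 0.984), Gabrb1 (r = 0.982) and Rhpn2 (r = 0.978). Etnppl is an astrocyte enzyme of phospholipid metabolism.

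Abca1 was most like Otulin (r = 0.944), Ccpg1 (r = 0.9), Dync2li1 (r = 0.892) and Phyh (r = 0.892). Abcg1 was most like Klhl28 (r = 0.91), Pqlc1 (r = 0.894), Napg (r = 0.867) and Nudt16 (r = 0.865). Pltp had a pattern like those of Vwa1 (r = 0.965), Cope (r = 0.963) and Trim47 (r = 0.949). Apod was most like Igf2 (r = 0.939), Srgn (r = 0.927), Mal (r = 0.919) and Cnpy2 (r = 0.913). Igf2 belonged to the markers of fibroblasts and meninges, and Mal, a myelin protein gene, to those of oligodendrocytes. Of 7 tested markers of fibroblasts and meninges, 4 were higher in Other than in the named populations and 0 lower. Of 7 tested oligodendrocyte markers, 1 was higher and 2 lower, with a median difference of -0.49. Of all genes 25.9% were higher and 28.4% lower.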

How the data were processed

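Per the submitters' processing notes, the tools were HISAT2, featureCounts, limma, FastQC, Trimmomatic and cutadapt, with no order or role stated, and the build names were mm10 and GRCm38. For versions, annotation and filters the sources used here give nothing. The kit per the labels' protocols was SMARTer Ultra Low with Nextera XT adapters. The authors deposited 1 table of log2 values, whose unit was judged from the values: 2 raised to them sums to 987637 to 987910 in every library, and all libraries share 1 maximum. Read totals are not given. The 1770 blank lines of the table were dropped.

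Limma 3.58.1 (R 4.3.3, trend and robust) was fitted to the 28 fresh libraries, the 8 neurosphere libraries, or all 36, with a mean per population. Genes with a value of at least 0 in at least 3 libraries of a population were tested (17788, 15956 and 19158), two-sided, with Benjamini-Hochberg adjustment over all of them. The design foresaw counts or log values, and the log branch applied. The fit was tested on simulated data. Coordinates and exon lengths come from GENCODE M21 (GRCm38), which held 19863 of the 19909 identifiers.

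The members and lists were chosen with earlier results of these data known. The text names the 7 genes, up to 4 called list members with the smallest p and those needed as not called, and the 4 most alike genes. Lrp8 and Abcg2 (qNSC against aNSC), Nr1h2, Nr1h3, Srebf2, Gm16156 and Ctsa fall outside this rule and were chosen after their values were seen. Some genes within the rule are not reported here. The TATA and GC box motifs were likewise added later. Alternatives were no filter, values below 0 set to 0, only the groups compared, centring, the replicate number as a block and each library left out.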

Additional observations from a re-analysis of the deposited data

Results flagged for a closer look

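Single libraries stood apart from the rest of their population in 7 of 42 tests by Dixon's criterion, where chance gives about 2.1. For Apoe these were qNSC replicate 2, the highest of its group at 13.26, pNSC replicate 3, the lowest at 13.02, aNSC replicate 1 at 9.75, NPC1 replicate 1 at 7.79 and DFFDA_H replicate 2 at 10.11, the last 3 each the lowest of their group. The qNSC and pNSC values differ only by the first and second rank of the library. Clu was lowest in NPC1 replicate 1, at 4.39, and Abcg1 in pNSC replicate 1, at -3.74, the floor of that library.

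The effect of the dye sort in culture differed from the qNSC minus aNSC effect in fresh tissue, by a test of the difference itself, for 5 of 7 genes, where 42.3% of all genes passed. These differences were 1.04 for Apoe, -4.05 for Clu, 2.51 for Abca1, -2.16 for Pltp and -7.28 for Lcat on the log2 scale. The Apoe call ended with libraries centred on trimmed differences and without any of 8 single libraries. Lcat was below 0 in all 8 neurosphere libraries, so no effect in culture could be read for it.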

How the results depend on the processing

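The 7 genes kept the direction of every called difference under no filter, centring on trimmed values, the 2-group fits and the replicate block. With only the groups compared, 1511 genes were called between pNSC and qNSC, 5080 between NPC1 and aNSC, 578 between NPC2 and NPC1, 2888 between NB1 and NPC2 and 6690 between NB2 and NB1, and of the 7 genes 0 were called between NPC2 and NPC1, 2 between NB1 and NPC2 and 4 between NB2 and NB1. With values below 0 set to 0, 0 were called between NPC2 and NPC1. Some uncalled differences then turned in sign, to -0.41 for Abcg1 (aNSC against pNSC), -0.053 for Lcat (NB1 against NPC2), -0.37 for Apod (DFFDA_H against qNSC) and -0.32 for Apod (the difference of the 2 effects). Centring on trimmed differences, chosen after seeing the data, gave 3 called genes between DFFDA_L and aNSC and 0.056 for Apod between NB2 and NB1. It moved the share of calls that were higher from 63.8% to 48.0% for pNSC against qNSC, 58.8% to 47.0% for aNSC against pNSC, 56.6% to 45% for aNSC against qNSC and 56.7% to 44.1% for the difference of the 2 effects, and the median of all genes from -0.05 to -0.16, 0.22 to 0.04, 0.19 to -0.11 and 0.14 to -0.11 in the same order, and from -0.19 to 0.01 for DFFDA_L against aNSC. The cause of these changes was not tested.

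With the replicate number as a block, 1 of the 7 genes (Pltp, adjusted p 0.0309) was called between pNSC and qNSC and 0 between NPC2 and NPC1, and 4103 and 211 of all genes. The Lcat adjusted p between NPC2 and NPC1 was then 0.0525. The labels give the numbers no meaning. In their deviations, 16 of 90 same-numbered pairs of fresh libraries and 10 of 252 others correlated above 0.1. Most same-numbered pairs did not, so the numbers were not taken to pair samples. As hints from the data to the contrary, same-numbered pairs passed 0.1 more often, and 17 of 28 fresh libraries correlated best with their own number. Among the neurosphere libraries 4 of 8 did. There the median r was 0.119 in 4 same-numbered pairs and -0.038 in 12 others.

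Each library was also left out in turn. For pNSC against qNSC the range was -0.21 to 0.090 for Abca1, -1.79 to 0.098 for Abcg1, 2432 to 4471 genes called and 0 to 1 members called. For aNSC against pNSC the range was -0.79 to 1.1 for Abcg1. For aNSC against qNSC the range was -1.04 to 0.49 for Apod. For NPC1 against aNSC the range was -0.22 to 1.0 for Apod, 1337 to 2128 genes called and -0.22 to 0.26 for Pltp. For NPC2 against NPC1 the range was -0.62 to 0.071 for Abcg1, 80 to 193 genes called and 0 to 2 members called. For NB1 against NPC2 the range was -0.20 to 0.12 for Abca1, -0.11 to 0.79 for Abcg1, -0.23 to 1.4 for Apod, 764 to 1228 genes called, -0.14 to 2.06 for Lcat and -0.026 to 0.32 for Pltp. For NB2 against NB1 the range was -0.76 to 0.69 for Apod, -0.27 to 0.78 for Lcat and 1 to 2 members called. For Other against the named populations the range was -0.085 to 0.14 for Abca1. For DFFDA_L against aNSC the range was 3 to 5 members called. The lowest counts of genes came without pNSC replicate 1 (2432), NPC1 replicate 1 (1337), NPC2 replicate 1 (80) and NB1 replicate 1 (764). Read totals are unknown, and differences of genes near the floor are limited most.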
